A study of Homo sapiens with 4 samples.

Results

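The 10 protein-coding genes of the high mobility group (HMG) chromatin proteins were examined in human 293T cells: HMGN1 to HMGN5, HMGB1 to HMGB3, HMGA1, and HMGA2. The family was chosen by a measured value, the lower FPKM of HMGN1 in the library of the miR-1 mimic than in the control library, so that this value of HMGN1 is given as a description. All 10 were found, by symbol and Ensembl gene identifier, among the 58243 genes of the files, and all 10 were among the 12614 genes with enough reads to be compared. Their pseudogenes were kept apart.

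The study transfected 293T, a line of human embryonic kidney cells, with a control RNA (negative control) or with a mimic, a synthetic RNA that acts as the mature miRNA, of either miR-1, miR-122, or else miR-124, and measured mRNA by RNA-seq at 48 h as given in the labels. The 4 conditions have 1 library each, of 5887055 to 9452232 reads, so there is no replicate check and no test, and a difference between 2 libraries cannot be told apart from a difference between the conditions. All 3 comparisons share the control RNA library. Each value is the authors' FPKM (fragments per kilobase of gene, scaled to the depth of the library), and the reads behind it were recovered as described under processing.

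HMG proteins are abundant nuclear proteins that bind DNA or nucleosomes with little preference for sequence and change the structure of chromatin. HMGN proteins bind the nucleosome core and loosen the chromatin fibre in competition with linker histone H1, HMGB proteins bend DNA through their HMG boxes, and HMGA proteins grip the minor groove of AT-rich DNA with AT hooks. A miRNA guides Argonaute to mRNAs whose 3′ UTR pairs with its seed, and such mRNAs are then degraded and translated less.

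The mature miRNAs set the letters searched for in the 3′ UTRs. The capitals mark the seed, bases 2 to 8, in the RefSeq entries for hsa-miR-1-3p (MIR1-1, chr20:62554351-62554372, plus strand, and MIR1-2, chr18:21829015-21829036, minus strand) and hsa-miR-122-5p (MIR122, chr18:58451088-58451109, plus strand) of GRCh38.p14.
hsa-miR-1-3p: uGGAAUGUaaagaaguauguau
hsa-miR-122-5p: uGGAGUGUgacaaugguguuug

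The matches to these seeds in the HMG genes were searched on the mRNA strand, in the longest 3′ UTR that GENCODE release 44 annotates for each gene and in that of its canonical transcript. An 8mer is ACATTCCA for miR-1 and ACACTCCA for miR-122. A 7mer-A1 lacks the first of these letters, a 7mer-m8 lacks the last, a 6mer lacks both, and each place was counted once, as the longest of these. The miR-1 matches of at least 7 bases are printed because they show which HMG mRNAs share the letters found in HMGN1. Each window holds 29 bases of GRCh38 on the strand of the gene, with the match in capitals.
HMGN1, 8mer, chr21:39342827-39342855, minus strand: gtctcgggtgtcagcttaACATTCCAcag
HMGB1, 8mer, chr13:30457028-30457056, minus strand: aattcagtcatgtacgtgACATTCCAcag
HMGA2, 8mer, chr12:65957292-65957320, plus strand: ctttgcataaaaataagaACATTCCAcaa
HMGA2, 7mer-A1, chr12:65965635-65965663, plus strand: ctcataaaaataaaagtcgCATTCCAtat
HMGN3, 7mer-A1, chr6:79201443-79201471, minus strand: gtgtgtaagattgattcagCATTCCAtgc
The 8mers for miR-122 were in HMGB1 and HMGA2.
HMGB1, 8mer, chr13:30457683-30457711, minus strand: acacaaacataatatgccACACTCCAgaa
HMGA2, 8mer, chr12:65951837-65951865, plus strand: atatttgatgatcccaaaACACTCCAaag
HMGA2, 8mer, chr12:65953213-65953241, plus strand: atgcaactagagatgaagACACTCCAtga

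The match in HMGN1 lies 275 bases after the stop codon, in a 3′ UTR of 797 bases. The match in HMGB1 lies far down its 3′ UTR, 4319 bases after the stop codon of 4653, and a 6mer for miR-1 follows it at 4400. In HMGA2 the miR-1 8mer lies at 5877 of the 7421 bases of the longest 3′ UTR, in a part that the canonical transcript does not have, whereas the 7mer-A1 lies at 2362 of the 2999 bases of the canonical one. HMGN3 holds its 7mer-A1 only in the canonical 3′ UTR, at 236 of 443 bases. HMGN2 holds only a 6mer for miR-1, at 1061 of 1494 bases.

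For miR-122, no HMGN gene held a match of any length. HMGB1 held a 6mer at 64, a 7mer-A1 at 2974, and the 8mer at 3664, HMGB3 held a 7mer-A1 at 908 of 2857 bases, and HMGA1 held a 6mer at 321 of 1347. The HMGA2 8mers, at 422 and 1798, are both absent from the canonical 3′ UTR. HMGN4, HMGN5, and HMGB2 held no match to either seed in the 3′ UTRs searched.

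In the longest 3′ UTRs, a miR-1 match of at least 7 bases was found in 3 of the 10 HMG genes and in 25.0% of the 11179 compared genes with a 3′ UTR. An 8mer was found in the same 3 genes, HMGN1, HMGB1, and HMGA2, and in 5.98% of genes. For miR-122, a match of at least 7 bases was found in 3 of 10 against 26.4% of genes, and an 8mer in 2 of 10, HMGB1 and HMGA2, against 3.68%. The counts of at least 7 bases are near the shares among all genes and those of 8mers are above them. The miR-1 counts include HMGN1, for whose low value in the miR-1 library the family was chosen, so they are not independent of that choice. The 3′ UTRs of HMGB1 and HMGA2 are longer than those of 88.5% and 96.5% of genes, and the 8mers of HMGA2 are not in its canonical 3′ UTR.

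**Figure D1:**
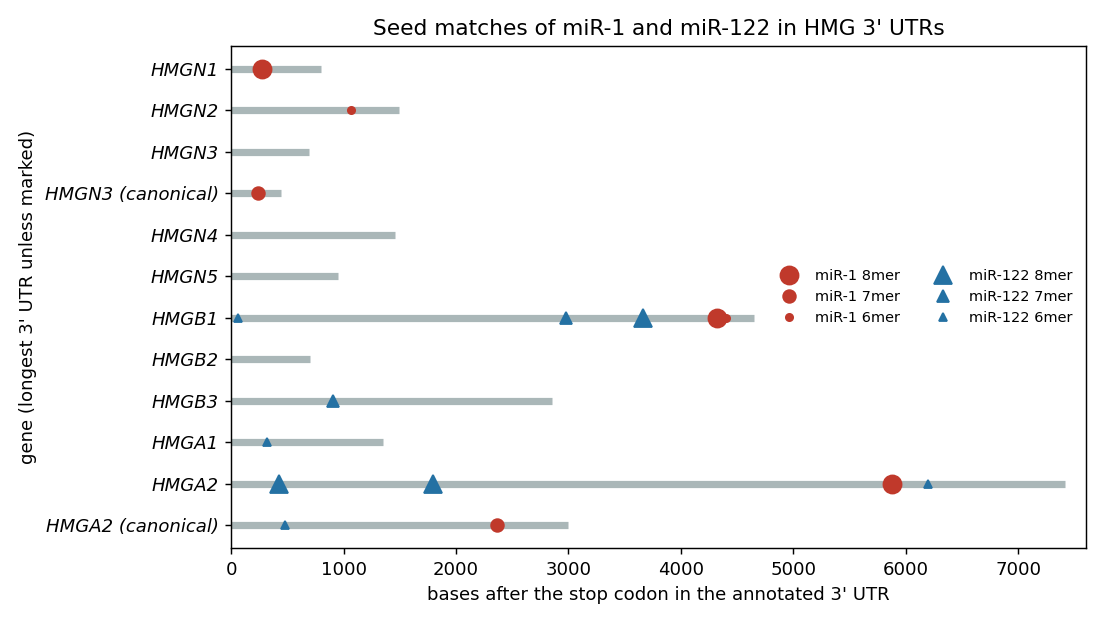
Places of seed matches in the 3′ UTRs of the HMG genes, in bases after the stop codon on the x axis, with 1 row for each gene and additional rows for canonical 3′ UTRs. Marker shape and colour give the miRNA and marker size the kind of match. HMGN1 has a single match, the miR-1 8mer at 275 bases.

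Per length of mRNA, HMGB2, HMGN2, and HMGN1 were the most abundant HMG mRNAs in the control library. The deposited FPKM values are divided by the whole genomic length of a gene, introns included, so that levels were compared between genes as recovered reads per kilobase of the canonical transcript per 1000000 reads. On this scale, the control library held 254 for HMGB2, 197 for HMGN2, 196 for HMGN1, 145 for HMGA1, 99.3 for HMGN3, 86.8 for HMGB1, 31.9 for HMGA2, 22.5 for HMGN4, 20.6 for HMGB3, and 6.04 for HMGN5. Of the neighbours in this order, HMGN2 (95% counting interval 190 to 205) and HMGN1 (186 to 205) overlapped, and so did the intervals of HMGN4 and HMGB3.

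The order was nearly the same in every library. HMGN1 was at 146 in the miR-1 library, where it ranked 4 behind HMGA1 at 154, and at 196 and 178 in the libraries labelled miR-122 and miR-124, where it ranked 3. HMGB3 ranked 8 and HMGN4 ranked 9 in each mimic library, the reverse of the control. The place of HMGN1 depends on the length used. Per kilobase of merged exons, which for HMGN1 take in 5.042 kb against 1.271 kb of the canonical transcript, it was at 49.3 in the control library and ranked 6, below HMGB2 at 152, HMGN2 at 120, HMGA1 at 119, HMGN3 at 70.7, and HMGB1 at 61.6. The transcripts that 293T cells make from each gene were not measured.

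Against the control library, HMGN1 was the only HMG gene lower in the miR-1 library, meaning a ratio of 0.8 or less, as were 18.3% of all genes compared, and none was higher, meaning the inverse of 0.8 or more, against 7.42% of all genes. In the library labelled miR-122, none was lower, against 12.3%, and only HMGN5 was higher, against 7.88%. In the library labelled miR-124, HMGN4 and HMGA2 were lower, against 16.3%, and none was higher, against 10.3%. Each of these counts, from 0 to 2 of 10 genes, is near or below the share among all genes.

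The HMG genes had a median log2 ratio of 0.05 in the miR-1 library, beside -0.05 over all genes compared. The medians were -0.04 beside -0.02 in the library labelled miR-122 and -0.15 beside -0.05 in that labelled miR-124, where the median of the HMG genes was -0.03 once a joint trend with 3′ UTR GC content and length, gene distance, and reads was subtracted. In the same order, ratios below 1 were found for 4, 6, and 9 of the 10 genes, and HMGA1 was the exception in the last. By family, the median log2 ratios in the order miR-1, miR-122, and miR-124 were 0.01, -0.00, and -0.13 for HMGN, 0.08, -0.08, and -0.16 for HMGB, and -0.04, -0.07, and -0.11 for HMGA.

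**Figure D2:**
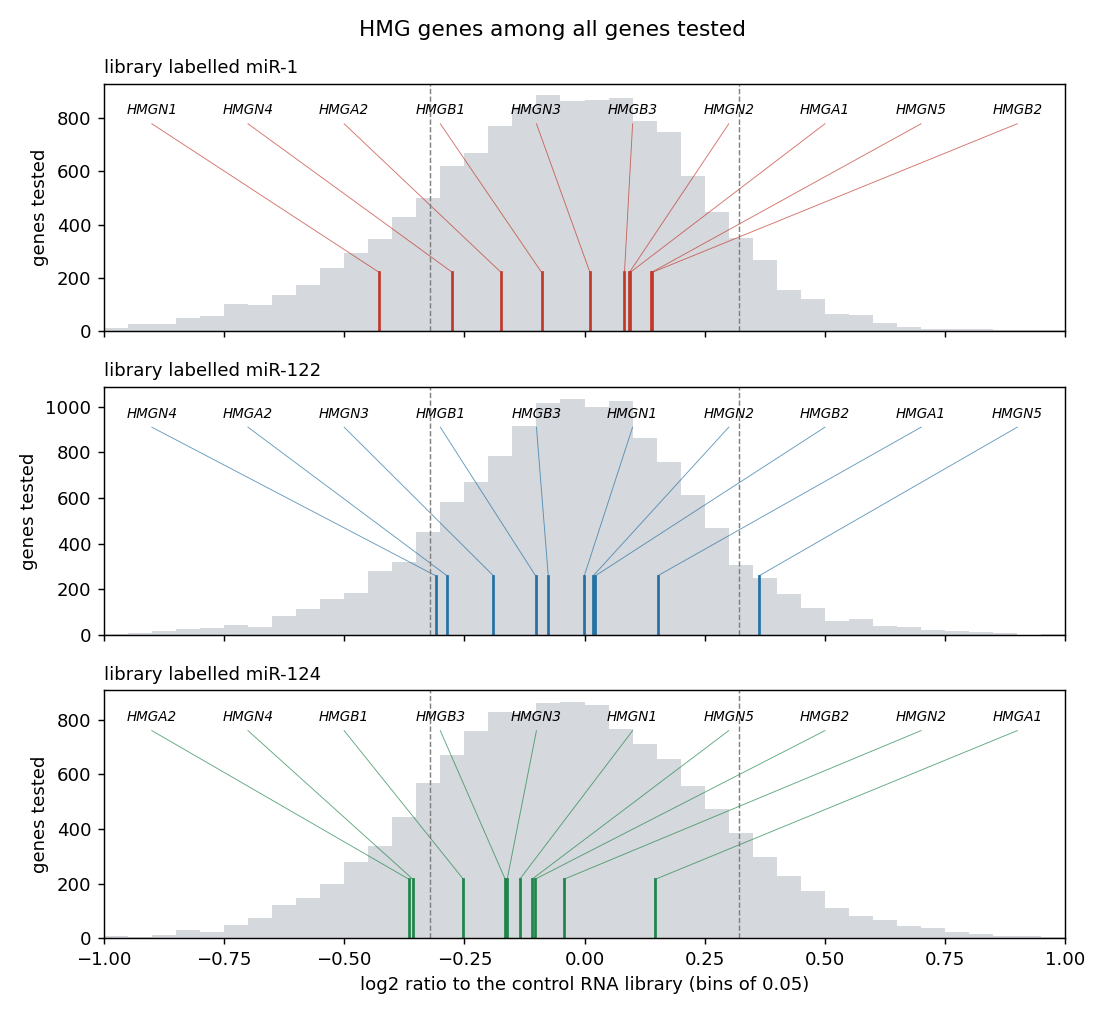
Histograms of the log2 ratio to the control RNA library for the 12614 genes compared, with 1 panel for each mimic library, the HMG genes as coloured lines, and dashed lines at a ratio of 0.8 and its inverse. The axis ends at -1 and 1. The HMG genes lie between -0.43, for HMGN1 in the miR-1 panel, and 0.36, for HMGN5 in that labelled miR-122.

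HMGN1 (ENSG00000205581, chr21:39342315-39349647, minus strand) encodes a small nucleosome-binding protein. It was at 33.9 FPKM in the control library and at 25.2, 33.9, and 30.9 in the libraries labelled miR-1, miR-122, and miR-124, from 1648, 1749, 1464, and 1465 reads. The miR-1 library was thus the lowest of the 4, and the control and miR-122 libraries were equal at this precision. Its ratio to control was 0.744 with miR-1 (95% counting interval 0.695 to 0.796), 1.00 with miR-122 (0.931 to 1.07), and 0.911 with miR-124 (0.848 to 0.978). Intervals here and below are exact Clopper-Pearson intervals of the share of reads in 1 of 2 libraries, and they cover counting error only.

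Against the mean of the other 2 mimic libraries, HMGN1 in the miR-1 library was at 0.779. Of all genes compared, 11.2% were lower than HMGN1 in the miR-1 library, so that its value, though the lowest of the family, is a moderate one among genes. The 669 genes with a miR-1 8mer in the longest 3′ UTR had a median ratio of 0.837 in the miR-1 library, beside 1.00 for 6699 genes with no match. Of these 8mer genes, 27.1% were lower than HMGN1, and 42.5% had a ratio of 0.8 or less, beside 12.5% of those with no match. The same 8mer genes had medians of 0.941 and 0.896 in the libraries labelled miR-122 and miR-124.

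HMGN2 (ENSG00000198830, chr1:26472440-26476642, plus strand) encodes a nucleosome-binding protein present in most cell types. It was at 109 FPKM in the control library and at 116, 110.1, and 106 in the mimic libraries, in the order miR-1, miR-122, and miR-124, which is kept below. The library labelled miR-124 was the lowest and the miR-1 library the highest. The ratios were 1.07 (1.01 to 1.12), 1.01 (0.956 to 1.07), and 0.971 (0.918 to 1.03).

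HMGN3 (ENSG00000118418, chr6:79201245-79234689, minus strand), an HMGN protein first found as a partner of the thyroid hormone receptor, was at 2.84 FPKM in the control library and at 2.86, 2.49, and 2.54 in the mimic libraries. The miR-1 library equalled the control and the other two were lower. The ratios were 1.01 (0.909 to 1.12), 0.877 (0.778 to 0.988), and 0.894 (0.796 to 1.00). HMGN3 shares 144 exon bases with the antisense gene HMGN3-AS1, which had 262, 397, 232, and 287 reads, and whether the counting used strand is not given in the sources used here.

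HMGN4 (ENSG00000182952, chr6:26538366-26546933, plus strand) is a copy of HMGN2 that arose by retroposition, and 86.4% of their 273 coding bases are identical. It was at 5.58 FPKM in the control library and at 4.61, 4.50, and 4.35 in the mimic libraries. The control was the highest, and the 3 mimic libraries lay close together. The ratios were 0.826 (0.705 to 0.970), 0.807 (0.672 to 0.968), and 0.781 (0.652 to 0.933). Against the mean of the other 2 mimic libraries, they were 1.04, 1.00, and 0.956, so that the difference is between the control library and all 3 others.

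HMGN5 (ENSG00000198157, chrX:81113699-81201913, minus strand) encodes the longest HMGN protein, with a long acidic tail. It had the lowest level of the family, at 0.144 FPKM in the control library and 0.158, 0.185, and 0.133 in the mimic libraries. The ratios were 1.10 (0.831 to 1.47), 1.29 (0.949 to 1.74), and 0.927 (0.671 to 1.28), all with intervals that hold 1. Its recovered reads, 84 in the control library, rest on a multiple of 4. With the smallest whole reads, 21, 33, 24, and 19, the interval for miR-122 widens to 0.686 to 2.43, and no difference in HMGN5 was detectable at this depth.

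HMGB1 (ENSG00000189403, chr13:30456704-30617597, minus strand) encodes a DNA-bending protein that is also released from dying cells as an alarm signal. It was at 2.94 FPKM in the control library and at 2.77, 2.74, and 2.47 in the mimic libraries, from 3138, 4209, 2599, and 2572 reads. The library labelled miR-124 was the lowest. The ratios were 0.940 (0.897 to 0.985), 0.932 (0.884 to 0.982), and 0.840 (0.797 to 0.885), and the last came to 0.02 on the log2 scale once the joint trend with 3′ UTR GC content and length, gene distance, and reads was subtracted.

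HMGB2 (ENSG00000164104, chr4:173331376-173334432, minus strand), which is prominent in dividing cells, was at 107 FPKM in the control library and at 118, 108, and 99.3 in the mimic libraries. The miR-1 library was the highest and that labelled miR-124 the lowest. The ratios were 1.10 (1.05 to 1.16), 1.02 (0.958 to 1.08), and 0.931 (0.879 to 0.987). HMGB3 (ENSG00000029993, chrX:150980509-150990771, plus strand), the X-linked HMGB gene, was at 7.04 FPKM in the control library and at 7.46, 6.68, and 6.28 in the mimic libraries. As for HMGB2, the miR-1 library was the highest and that labelled miR-124 the lowest, with ratios of 1.06 (0.942 to 1.19), 0.949 (0.829 to 1.09), and 0.892 (0.780 to 1.02), all with intervals that hold 1.

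HMGA1 (ENSG00000137309, chr6:34236873-34246231, plus strand), the AT-hook gene most active in proliferating cells, was at 29.6 FPKM in the control library and at 31.7, 32.9, and 32.8 in the mimic libraries. The control library was the lowest of the 4, the opposite of HMGN4. The ratios were 1.07 (1.01 to 1.13), 1.11 (1.04 to 1.19), and 1.11 (1.04 to 1.18), and the last turned to -0.13 on the log2 scale once the joint trend with 3′ UTR GC content and length, gene distance, and reads was subtracted.

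HMGA2 (ENSG00000149948, chr12:65824460-65966291, plus strand), an embryonic AT-hook gene and a known target of let-7, was at 0.925 FPKM in the control library and at 0.820, 0.759, and 0.718 in the mimic libraries. The control was the highest. The ratios were 0.887 (0.811 to 0.970), 0.820 (0.739 to 0.910), and 0.776 (0.701 to 0.860), so that the miR-1 library was the nearest of the 3 to the control. Against the mean of the other 2 mimic libraries, the ratios were 1.11, 0.987, and 0.910.

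The base composition of the 3′ UTRs moved with the ratios of all genes. The HMG genes other than HMGA1 and HMGB3 have 3′ UTRs with less GC than the median gene: the 10 genes had a median of 36.2%, beside 42.7% over 11179 genes, and ranged from 27.1% in HMGN5 to 60.4% in HMGA1. Across those genes, which are not independent replicates and share the control library, Pearson's r of GC content with the log2 ratio was 0.241 in the miR-1 library, 0.341 in that labelled miR-122, and 0.612 in that labelled miR-124. Of the 5 equal parts of the genes by GC content, the second, from 34.9% to 39.8%, holds HMGN1, HMGN3, HMGN4, HMGB1, and HMGA2, and its median log2 ratios were -0.14, -0.11, and -0.19. The fifth, which holds HMGA1, had medians of 0.06, 0.12, and 0.24.

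With the joint trend in GC content, 3′ UTR length, gene distance, and reads subtracted, where the part of each was not separated, the log2 ratios in the library labelled miR-124 went from 0.15 to -0.13 for HMGA1, from -0.37 to -0.07 for HMGA2, and from -0.25 to 0.02 for HMGB1. HMGN4 was at -0.23 there after this step, at -0.22 with miR-1, and at -0.26 with miR-122. HMGN1 in the miR-1 library went from -0.43 to -0.49, where 3.75% of the 11179 compared genes with a 3′ UTR were lower. Of the variance between genes, the step removed 45.6% in the library labelled miR-124, 19.9% in the miR-1 library, and 18.4% in that labelled miR-122.

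**Figure D3:**
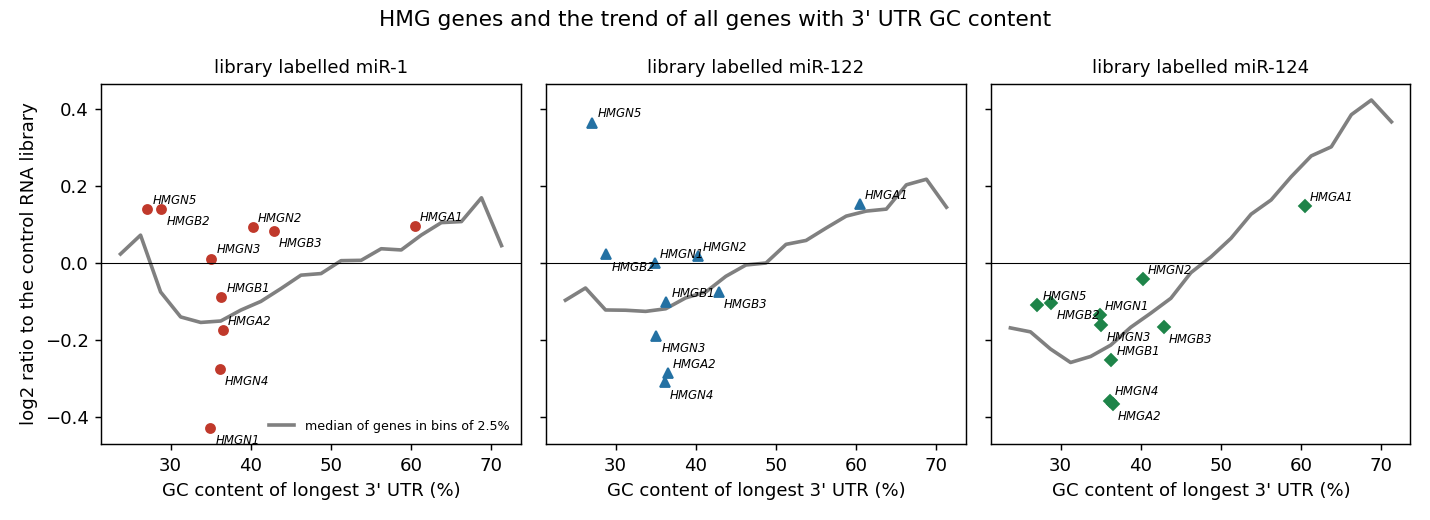
Log2 ratio to the control RNA library against GC content of the longest 3′ UTR in percent, with 1 panel for each mimic library, the HMG genes as points and the median of all genes in bins of GC content as a grey line. The line rises most in the panel labelled miR-124, and HMGN1 lies below it in the miR-1 panel.

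Reads can be shared with near-identical copies. The annotation names 155 pseudogenes after these genes, of which 39 were above 0 in any library and 9 held at least 10 reads over the 4 libraries. Reads of the HMGB1 pseudogenes came to 34.5% of those of HMGB1 over the 4 libraries, against 9.26% for HMGN2, 1.04% for HMGN1, and 1.24% for HMGB3. HMGB1P5, with 643 reads in the control library, had ratios of 1.03, 0.915, and 0.913, and HMGB1P6, with 384 reads, had 0.995, 0.891, and 0.907. HMGN2P5, with 180 reads, had 1.13, 1.08, and 1.05. HMGN2P3 held 159 reads over the 4 libraries, HMGB1P10 held 46, HMGN2P46 held 30, HMGN1P36 held 23, HMGN1P38 held 17, and HMGB3P24 held 10.

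With the reads of its pseudogenes added, HMGB1 was at 0.959, 0.926, and 0.857, HMGN2 at 1.07, 1.02, and 0.976, and HMGN1 at 0.747, 1.00, and 0.912. The values of HMGB1 and HMGN2 remain uncertain by how the counting split such reads, though HMGN2, like HMGN1, hardly moved in this step.

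The coding sequences show how near the genes are to each other. HMGN1 encodes 100 residues, HMGN2 and HMGN4 90 each, HMGN3 130, and HMGN5 282, while HMGB1, HMGB2, and HMGB3 encode 215, 209, and 200, and HMGA1 and HMGA2 107 and 109. Of the aligned coding bases, 74.3% were identical between HMGN1 and HMGN2, 77.7% between HMGB1 and HMGB2, and 68.3% between HMGA1 and HMGA2. HMGN2 and HMGN4, the pair with the most identical coding bases, were at 1.07 and 0.826 in the miR-1 library.

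The genes whose pattern was most like that of HMGN1 came from outside the family, which makes up so few of the genes searched that this was likely beforehand. Over the 3 log2 ratios, which share the control library, the distances of the 5 nearest of 6168 protein-coding genes with at least 1000 reads were 0.04 for PMEL, 0.05 for HSPA13, 0.05 for KDM2B, 0.05 for CALM2, and 0.06 for NXPE3. Their ratios in the miR-1 library, near that of HMGN1 because they were picked for it, were 0.750, 0.727, 0.745, 0.770, and 0.737. KDM2B, CALM2, and NXPE3 hold a miR-1 match of at least 7 bases, and PMEL and HSPA13 do not, beside 25.0% of the 11179 compared genes with a 3′ UTR. Since these genes were picked for low ratios in the miR-1 library, their matches are not independent of that choice. The nearest HMG gene was HMGB1, at a distance of 0.37, and the farthest was HMGN5, at 0.67.

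Among proteins that share the nucleosome with the HMG family, the linker histones, with which HMGN proteins compete, had 3 of 7 genes with enough reads, and none was lower or higher by the fold used here in any library. Of all genes, 18.3%, 12.3%, and 16.3% were lower in the libraries labelled miR-1, miR-122, and miR-124. In the same order, 7.42%, 7.88%, and 10.3% were higher. In the miR-1 library, H1-10, with a 7mer-A1 for miR-1, was at 0.869 and H1-2, with no match, at 1.02. Of 14 histone chaperones and acidic nucleosome binders, all compared, 2 were lower in the miR-1 library, beside 18.3% of all genes. None was higher there, and none was lower or higher in the other libraries, beside the same shares of all genes. The 2 lower genes were PTMA and ANP32E, and each holds a miR-1 7mer-A1. NAP1L1, ANP32A, and ANP32B also hold a miR-1 match of at least 7 bases and were not past the fold, at 0.833, 0.977, and 0.858. PTMA, encoding the acidic protein prothymosin alpha, was at 0.579 (0.558 to 0.601) and then 1.07 and 1.00 in the libraries labelled miR-122 and miR-124. ANP32E, a chaperone that removes H2A.Z, was at 0.701 (0.645 to 0.763), 0.930, and 0.911. The highest were NASP, a histone H3 chaperone, and NCL, the nucleolar protein nucleolin, both at 1.13. NCL holds a miR-1 8mer and NASP holds no miR-1 match.

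PTMA was thus farther below the control in the miR-1 library than HMGN1, and both stood at or near the control in the library labelled miR-122. Of 8 other abundant chromatin architecture genes, 3 were lower in the miR-1 library, beside 18.3% of all genes, and none in those labelled miR-122 and miR-124, beside 12.3% and 16.3%. NUCKS1, a chromatin protein with a 7mer-m8 for miR-1, was at 0.702 (0.669 to 0.737), 0.921, and 0.833. CBX5, encoding heterochromatin protein HP1 alpha and with a 6mer, was at 0.747 (0.687 to 0.812), 0.973, and 0.864. The third was HP1BP3, a relative of linker histone H1 with 2 miR-1 matches of at least 7 bases, at 0.754 in the miR-1 library. BANF1, which bridges DNA ends and holds no miR-1 match, was at 1.09 there. CBX3, encoding HP1 gamma and with a 6mer, was at 1.07.

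Of 28 other genes with an HMG box, 25 had enough reads, and SSRP1 is in this list and in that of the chaperones. In the miR-1 library, 4 were lower and none was higher, beside 18.3% and 7.42% of all genes, with a median log2 ratio of -0.15. In the library labelled miR-122, 3 were lower and 1 was higher, beside 12.3% and 7.88% (median -0.02), and in that labelled miR-124, 4 were lower and 3 were higher, beside 16.3% and 10.3% (median -0.04). The counts are thus near or below those shares. SOX9, a transcription factor of cartilage and gonad with a miR-1 8mer, had 141 reads in the control library and 91, 76, and 84 in the mimic libraries. It was at 0.452 (0.344 to 0.593), 0.607 (0.453 to 0.807), and 0.610 (0.460 to 0.805), more than 1.5-fold lower in each. TCF7L2, a factor of Wnt signalling with a miR-1 7mer-m8, was at 0.728 (0.580 to 0.914) in the miR-1 library. The remaining lower genes there, PBRM1 at 0.742 and SOX4 at 0.769, hold no miR-1 match. SOX3 was at 1.24 (0.903 to 1.73) and WDHD1, a replication factor, at 1.15 (0.970 to 1.36), and neither holds a miR-1 match.

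HMGA2 is controlled in embryonic cells by let-7, whose maturation LIN28 proteins block. Of 5 genes of this axis, 4 had enough reads, and LIN28B was the 1 past the fold in each library, where 18.3%, 12.3%, and 16.3% of all genes were lower. Its reads were 426 in the control library and 431, 255, and 307 in the mimic libraries, with ratios of 0.709 (0.619 to 0.813), 0.674 (0.574 to 0.788), and 0.738 (0.636 to 0.857). LIN28B holds no miR-1 or miR-122 match. LIN28B and HMGA2 were thus both highest in the control library, but this was not particular to them. The other compared genes of this axis, encoding the mRNA-binding proteins IGF2BP2, IGF2BP1, and IGF2BP3, were highest there too. They were at 0.852, 0.894, and 0.941 with miR-1, and the counting intervals of IGF2BP3 held 1 in each mimic library. With the joint trend subtracted, the log2 ratios of HMGA2 were 0.07, -0.09, and -0.07 in the order miR-1, miR-122, and miR-124. A link between LIN28B and HMGA2 was not tested.

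Outside cells, HMGB1 is bound by receptors of immune cells. Of 8 receptors and partners, only CXCR4 and CD24 had enough reads to compare. CXCR4, the chemokine receptor that binds HMGB1 with CXCL12, had 100, 78, 121, and 130 reads and ratios of 0.547 (0.401 to 0.742), 1.36 (1.04 to 1.79), and 1.33 (1.02 to 1.75), so that it was lowest in the miR-1 library, and it holds a miR-1 8mer. CD24, a surface glycoprotein, was at 0.968, 0.859, and 0.969.

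The libraries were checked through targets known from earlier work. For miR-1, TWF1 and TAGLN2 had ratios of 0.335 and 0.533 in the miR-1 library. For miR-122, SLC7A1 was at 0.699 in its own library and ALDOA at 0.907, each the lowest of the mimic libraries, while CCNG1 was at 0.934 there, above its 0.854 and 0.884 in those labelled miR-1 and miR-124. For miR-124, PTBP1 was at 1.05 and CTDSP1 at 1.08 in the library labelled miR-124, and LAMC1 was at 0.760 there and at 0.746 in that labelled miR-122. PTBP1 and CTDSP1 were therefore not below the control in that library, and LAMC1 was below it there about as far as in that labelled miR-122, so the library is named throughout by its label. The 6 markers of 293T cells summed to between 15558 and 24389 reads, beside 2 to 3 for 4 liver markers, 7 to 21 for 4 muscle markers, 85 to 107 for 4 neuron markers, and 0 to 2 for 3 blood markers. Most of the 293T sum came from KRT8, VIM, and KRT18, with 9255, 3587, and 2603 reads in the control library. PAX2, LHX1, and NEFM had only 12, 64, and 37 reads there, near the 48 and 31 of the neuron markers SYT1 and RBFOX3. The sum is therefore a weak check of the cell type. MYL2, FGB, NEUROD1, and CD3E were at 0 in every library.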

How the data were processed

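The authors isolated total RNA with Trizol, sequenced mRNA libraries, and aligned the reads to GRCh38. The deposited files hold FPKM, 1 value per gene in each library. The submitters' processing notes name CASAVA 1.8 and HISAT2 2.0.0. The counting program, its annotation, and its use of strand are not given in the sources used here. The labels give 48 h after transfection and the study's methods an earlier time.

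Reads were recovered from the FPKM values. In each library, the value of 1 read in short genes gave the divisor, which was 6624306 reads in the control library, with 9452232, 5887055, and 6465436 in those of miR-1, miR-122, and miR-124. The length of a gene was its annotated distance (GENCODE release 44) where that made its reads whole in all 4 libraries within a tolerance of 0.01. Otherwise it was the smallest whole number that did. This was 3522 against an annotated 4202 for HMGN2 and 3430 against 3056 for HMGB2. A length was found for 31998 of 32010 genes (99.96%), and the annotated distance itself gave whole reads for 20080 (62.7%). Where the smallest number was far from the annotated distance, a multiple of it, up to 4, near that distance was taken if there was one. The reads of such a gene can be off by a whole factor. Of the HMG genes, the annotated distance gave whole reads for HMGN1, HMGB1, and HMGA1.

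Genes compared had at least 200 recovered reads over the 4 libraries and FPKM above 0.004 in each. Ratios to the control RNA library were taken without a pseudocount, with exact 95% intervals. Lower means a ratio of 0.8 or less and higher its inverse or more. No test across genes was run, since each condition has 1 library. As alternatives, a pseudocount of 1 or 0.1, a reference made of the remaining 2 mimic libraries, centring on the median of all genes, an adjustment for a cubic trend in 3′ UTR GC content and length, gene distance, and reads, no filter on reads, and a fold of 1.5 were used. The steps were tested on simulated data. Protein features and seed matches of miR-124 were not analysed here.

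The HMG genes and the other lists were chosen with earlier results of these data known. Named genes were the 10 HMG genes, the known targets, the 2 lowest and 2 highest of each list in the miR-1 library, list genes at least 1.5-fold changed one way in all 3 mimic libraries, the 5 genes nearest to HMGN1, and pseudogenes with at least 10 reads, and some of these are not reported here. HP1BP3, PBRM1, SOX4, NAP1L1, ANP32A, and ANP32B were named after their values were seen. The calculations used pandas 2.3.3 and numpy 2.4.6 under Python 3.11.15, with intervals from scipy 1.17.1 and plots from matplotlib 3.10.9.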

Additional observations from a re-analysis of the deposited data

How the results depend on the processing

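No paired analysis was possible because there is only 1 library in each condition, and for the same reason no replicate could be left out. At a fold of 1.5, 0 HMG genes were lower in the miR-1 library (4.87% of all genes), 0 were higher in the library labelled miR-122 (1.30% of genes), and 0 were lower in that labelled miR-124 (3.02%). With a pseudocount of 1, 0 were higher with miR-122 (2.75% of all genes) and 0 were lower with miR-124 (1.70%). A pseudocount of 0.1 also gave 0 higher with miR-122 (6.14%). HMGN5, the gene counted there, has FPKM values near such a pseudocount. In the library labelled miR-124, the main count of 2 became 1 against the mean of the other 2 mimic libraries (6.77% of all genes). That 1 gene was HMGN5, at a log2 ratio of -0.36, while HMGN4 and HMGA2 were at -0.06 and -0.14. The counting interval of HMGN5 against the pooled reads of those 2 libraries was 0.602 to 1.03, which holds 1. The count was 0 after centring on the median of all genes (12.4%). It was also 0 after the joint adjustment for reads, gene distance, and the length and GC content of the 3′ UTR (5.81% of genes with a 3′ UTR). The share of all genes thus fell as well, and the cause was not tested. The count of 1 with miR-1, HMGN1, stayed 1 under each alternative other than the fold of 1.5, with log2 ratios from -0.49 to -0.36. Under these alternatives, 3.44% to 26.6% of all genes were lower with miR-1. The median log2 ratios of the 10 genes stayed, under each alternative, within the mean counting interval of the genes at the middle of the list. Of the 30 ratios of single genes, 15 moved beyond their counting interval with the other reference, 11 with the adjustment, and 2 with a pseudocount of 1. The following were added after seeing the data: the reads of pseudogenes, which moved none of the 30, the smallest reads of HMGN5, and the order of levels by canonical transcript. Between 5887055 and 9452232 reads per library limit what can be seen in HMGN5 and HMGN4.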

Other observations

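PTBP1, the splicing repressor that miR-124 lowers in neurons, was at 0.677 (95% counting interval 0.647 to 0.709) in the miR-1 library, and at 1.00 and 1.05 in those labelled miR-122 and miR-124. ALDOA, a glycolytic enzyme known as a target of miR-122, was at 1.29 (1.24 to 1.34) in the library labelled miR-124 and at 0.907 (0.869 to 0.946) in that labelled miR-122. Both genes thus differed between the mimic libraries by more than its counting error, and there is 1 library for each condition.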
